A study of Mus musculus with 6 samples.

Results

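Tetraspanins are small membrane proteins that cross the membrane 4 times and carry a large outer loop with a conserved set of cysteines. Members were taken by name from the probe annotation of the array platform, as gene symbols made of Tspan and a digit or as Cd9, Cd37, Cd53, Cd63, Cd81, Cd82, Cd151, Upk1a, Upk1b, Prph2 and Rom1, using probe sets assigned to 1 gene only. This gave 30 genes of 22071 annotated ones, with 401 probe sets. Tspan7 was not analysed here. The family was chosen by the gene values of Tspan2, whose difference, Cugbp1 shRNA minus control, was the lowest of all genes measured. The Tspan2 difference is therefore described without a test, and nothing is read from exon usage calls of Tspan2.

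The samples were primary cortical neurons from C57BL/6 mouse embryos at embryonic day 15, cultured after removal of the meninges and exposed to AraC, an inhibitor of DNA synthesis, from day 2. On day 5 a lentivirus with a short hairpin RNA (shRNA) against mouse Cugbp1 or a control shRNA was applied for 4 hours, and RNA was taken on day 11. Cugbp1 is the older name of Celf1, an RNA-binding protein that acts in splicing, mRNA decay and translation. There were 3 Cugbp1 shRNA arrays and 3 control shRNA arrays, each from 100 ng of total RNA, and 1 shRNA against Cugbp1 is named, so effects on other transcripts cannot be told apart from those of lowering Celf1. For replicates 2 and 3, in both groups, the treatment description names Tdp-43 in place of Cugbp1, and the design text speaks of motor neurons. Nothing in the labels says whether the replicates were separate cultures, so p-values measure the spread between these arrays, which may be technical.

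Tetraspanins associate sideways with each other and with integrins, immunoglobulin proteins and proteases in the plasma membrane, and so gather these partners into membrane patches. They also guide partners through the secretory and endosomal routes, and several of them are abundant in exosomes, the small vesicles released from multivesicular bodies. In the brain Tspan2 is known in rodents from cells of the oligodendrocyte lineage, Cd9 and Cd81 from glia, and several other members from neurons.

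All levels below are log2 RMA values, a background-corrected and normalized signal per exon probe set, combined into 1 gene value per array by median polish over the probe sets of the gene that reached the median of all probe sets (5.73) on average. A gene needed 3 such probe sets. Celf1 was at 9.59, 9.40 and 9.33 in Cugbp1 shRNA arrays and at 10.85, 10.79 and 10.75 in control arrays, so that 39.1% of the control level remained (limma, adjusted p = 0.0124). The log2 difference of Tardbp, the gene of Tdp-43, was -0.035 (standard error 0.16, limma, adjusted p = 0.961). Among 16524 genes tested with limma, 651 (3.94%) passed an adjusted p of 0.05, of which 470 (2.84%) were lower and 181 (1.10%) higher in Cugbp1 shRNA arrays. Before adjustment 3105 of the 16524 genes were under 0.05. Both replicate 1 arrays stood apart from the other 4, below all of them in 26.9% of all genes and above all of them in 13.2%. A model with the replicate number as a block called 3827 genes (23.2%), 13.8% lower and 9.31% higher.

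Of the 30 members 29 were measured, and Tspan1, an epithelial member, was not, since only 2 of its 9 probe sets passed the filter. Without that filter Tspan1 averaged 4.55 in Cugbp1 shRNA arrays and 4.62 in control arrays, both below the median of all probe sets. Of all member probe sets 82.3% passed, against 78.7% of all probe sets with 1 gene. In control arrays the 29 members had a median gene value of 9.16, against 8.57 over all genes, and lay between 6.41 (Cd53) and 12.64 (Tspan13). Every probe set passed for 12 members, among them Tspan3, Tspan5, Tspan13, Cd63, Cd81 and Cd151. Under 50% passed for Tspan1, Tspan8, Tspan32, Prph2 and Cd53, the last of which marks leukocytes. Values of different genes also depend on probe sequence, so the members are not ordered by level.

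The control arrays of a member had a median SD of 0.13, and the highest SD was 0.31, for Upk1b. In 10 of 29 members (34.5%) both replicate 1 arrays lay below the other 4 arrays, and in 1, Tspan6, above them, where 26.9% and 13.2% of all genes did so. Tspan33, an erythroid and B cell member, shows it, with 7.94, 8.30 and 8.39 in Cugbp1 shRNA arrays and 7.88, 8.40 and 8.35 in control arrays. In that gene replicate 1 was the low array of each group, and the group means differed by 0.00 with a standard error of 0.18, or 0.06 with the replicate block.

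Tspan2 was at 8.01, 7.56 and 7.48 in Cugbp1 shRNA arrays and at 9.79, 9.81 and 9.64 in control arrays. The groups were separated by a gap of 1.63, and within the Cugbp1 shRNA group replicate 1 was the highest. The mean was 7.68 ± 0.29 in Cugbp1 shRNA arrays and 9.75 ± 0.09 in control arrays (SD, n = 3 each), a log2 difference of -2.06 with a standard error of 0.15. This corresponds to 24.0% of control. The difference within replicate numbers 1, 2 and 3 was -1.77, -2.24 and -2.16, of which 2 and 3 are those described as Tdp-43 shRNA. Nothing is read from the agreement of the pairs, since the family was chosen by Tspan2 on these arrays.

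The 16 Tspan2 probe sets all had a lower mean in Cugbp1 shRNA arrays. In 15 of them the 3 Cugbp1 shRNA values lay below the 3 control values, among them all 13 that passed the filter (10.0% of all probe sets with 1 gene that passed it were so separated, from which nothing is read, since the family was chosen by Tspan2). Differences ran from -3.59 to -0.49 with a median of -2.20. The lowest belonged to probe set 5122743, which did not pass the filter and was at 4.89, 3.87 and 3.03 in Cugbp1 shRNA arrays and at 7.56, 7.89 and 7.12 in control arrays. The highest belonged to probe set 4477704, the dimmest in control arrays, with 4.70, 5.32 and 4.17 in Cugbp1 shRNA arrays and 5.14, 5.21 and 5.32 in control arrays. Those groups overlap, and all 6 values are below the median of all probe sets. Among those that passed the filter the difference nearest 0, -1.34, was that of 5592969, with 6.40, 6.14 and 6.27 in Cugbp1 shRNA arrays and 7.91, 7.68 and 7.24 in control arrays. Across the 16 probe sets, which share their arrays and their gene, control level and difference had a Pearson correlation of -0.31 and a Spearman correlation of -0.22. Probe sets were not placed within the gene here.

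**Figure D1:**
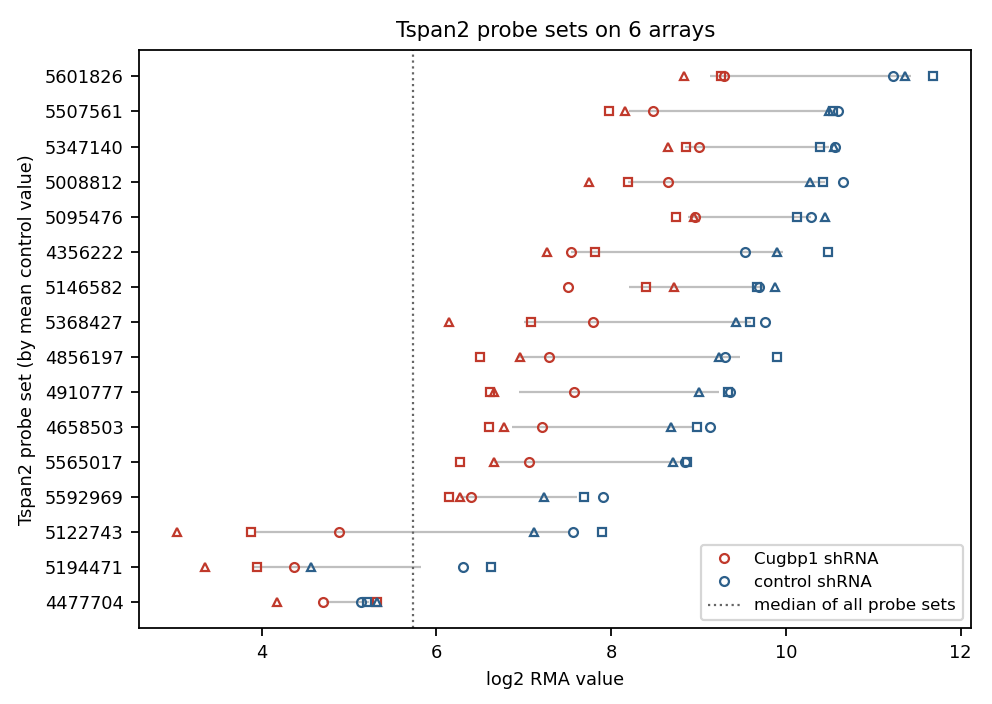
Log2 RMA values of the 16 Tspan2 probe sets on each of the 6 arrays, with replicates 1, 2 and 3 as circles, squares and triangles, a line between the group means and a dotted line at the median of all probe sets (5.73). In 15 probe sets the Cugbp1 shRNA arrays lie below all control arrays, and the exception is the probe set dimmest in control arrays.

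Because Tspan2 is known from oligodendrocyte precursors, markers of that lineage were set beside it. Of 11 measured oligodendrocyte lineage markers limma called 0, with 0 at an unadjusted p under 0.05, and 6 had a higher and 5 a lower mean. Over all genes 3.94% were called and 3105 of 16524 had an unadjusted p under 0.05. Nothing is read from counts of 0 among 11 genes. The average gene value of the 11 markers was 8.94 to 9.23 in Cugbp1 shRNA arrays and 8.94 to 9.31 in control arrays, with overlap. Among precursor and lineage genes the difference was 0.23 for Cspg4 (limma, adjusted p = 0.323, or 0.106 by the replicate block), which mural cells also express, 0.20 for the lineage factor Olig1 (0.490, or 0.144 by the block) and 0.15 for Sox10 (0.573, or 0.180). Among myelin genes it was -0.26 for Mag (limma, adjusted p = 0.839, or 0.0661 by the block), -0.21 for Mbp (0.791, or 0.108) and -0.17 for Cnp (0.860, or 0.0837), each with a lower value in all 3 replicate pairs. The difference was 0.06 for Mog, -0.01 for Mobp and -0.04 for Myrf, and none of these was lower in all 3 pairs. The part of this cell lineage in the Tspan2 difference was not tested. In RNA of mixed cultures fewer cells of a type and less RNA per cell cannot be told apart.

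Of the other 28 measured members, 2 were called in limma over all genes, Tspan15 and Tspan17, both lower (2.84% of all genes were called lower), and none (0) was called higher (1.10% of all genes). Before adjustment 8 of these 28 members lay under 0.05 in limma, where 3105 of all 16524 genes did. The mean was lower in 19 and higher in 9, with differences between -0.76 and 0.35, and 24 of the 28 differed by less than 0.3 in either direction. The median difference of the 28 was -0.06, against -0.01 over all genes. The median absolute difference was 0.11, against 0.13 over all genes. Groups did not overlap in 6 members that were lower and 3 that were higher, where 14.4% and 10.8% of all genes were so separated.

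**Figure D2:**
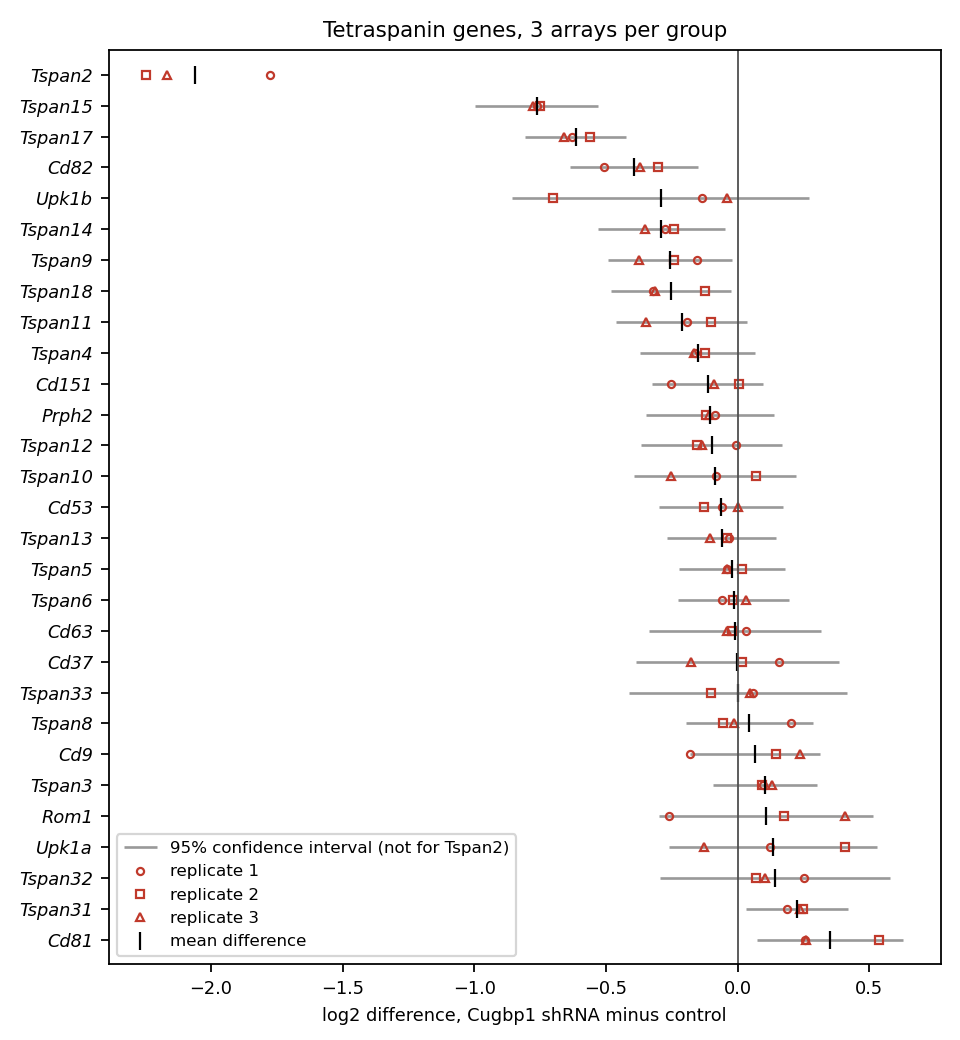
Log2 difference of each measured tetraspanin gene, Cugbp1 shRNA minus control, with its 95% confidence interval (limma, not drawn for Tspan2), the mean difference as a vertical mark and the difference within each replicate number as open symbols. Tspan2 lies at -2.06, Tspan15 at -0.76 and Tspan17 at -0.62, and the other members lie between -0.39 and 0.35.

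Both called members belong to the TspanC8 subgroup, 6 tetraspanins with 8 cysteines in the large outer loop that bind the membrane protease ADAM10, help it leave the endoplasmic reticulum and steer its choice of substrate. Tspan15, the member linked to ADAM10 cleavage of N-cadherin, was at 7.71, 7.51 and 7.58 in Cugbp1 shRNA arrays and at 8.47, 8.26 and 8.36 in control arrays. The groups were separated by 0.55, more than the range within either group. Tspan15 fell by 0.76 on the log2 scale (standard error 0.10, limma, adjusted p = 0.0177), to 58.9% of the control level, and the difference was -0.76, -0.75 and -0.78 within replicate numbers 1, 2 and 3. Of its 11 probe sets all had a lower mean, and in 8 the groups did not overlap. Among the 9 that passed the filter 7 were so separated, against 10.0% of all probe sets with 1 gene that passed it. These probe sets make up the called gene value and share its arrays, so nothing further is read from this count.

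Tspan17, another TspanC8 member, was at 9.63, 9.69 and 9.69 in Cugbp1 shRNA arrays and at 10.26, 10.25 and 10.34 in control arrays. Every Cugbp1 shRNA array lay at least 0.56 below every control array. Tspan17 fell by 0.62 (standard error 0.08, limma, adjusted p = 0.0179), to 65.3% of the control level, by 0.63, 0.56 and 0.66 within replicate numbers. Of its 15 probe sets, which all passed the filter, 14 had a lower mean. In 12 the groups did not overlap, against 10.0% of all probe sets with 1 gene that passed it. As for Tspan15, they make up the called gene value, so nothing further is read from this count. Tspan15 and Tspan17 did not pass without control replicate 2 (adjusted p = 0.0942 for both), without Cugbp1 shRNA replicate 2 (0.105 for both) or without Cugbp1 shRNA replicate 3 (0.104 for both), and Tspan17 did not pass without control replicate 3 (0.0502). In the first 3 of these cases limma called 0 of all genes, and in the last 166.

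Tspan14, which also carries ADAM10 to the cell surface, was at 10.93, 10.76 and 10.70 in Cugbp1 shRNA arrays and at 11.20, 11.01 and 11.05 in control arrays. The groups did not overlap but were only 0.08 apart. Its difference of -0.29 (standard error 0.10) did not pass in limma (adjusted p = 0.183), and under the replicate block it passed (adjusted p = 0.0189). The other TspanC8 members did not pass in either model. Tspan5, which is widely expressed in neurons, differed by -0.02 (95% confidence interval -0.22 to 0.18), Tspan10 by -0.09 (-0.39 to 0.22) and Tspan33 by 0.00 (-0.41 to 0.41). These intervals are from the model without the block. With it the standard errors of the 3 genes were 0.06, 0.08 and 0.06. Over the 6 TspanC8 members 2 fell and none (0) rose in limma, where 2.84% and 1.10% of all genes did, with a median difference of -0.19, against -0.01 over all genes. By the block 3 were lower, where 13.8% of all genes were. The subgroup was set out with these results known and holds both called members, so the counts and the median are a description only. Adam10 itself was at 10.19, 10.35 and 10.34 in Cugbp1 shRNA arrays and at 10.40, 10.47 and 10.23 in control arrays, a difference of -0.07 (standard error 0.10, limma, adjusted p = 0.826).

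**Figure D3:**
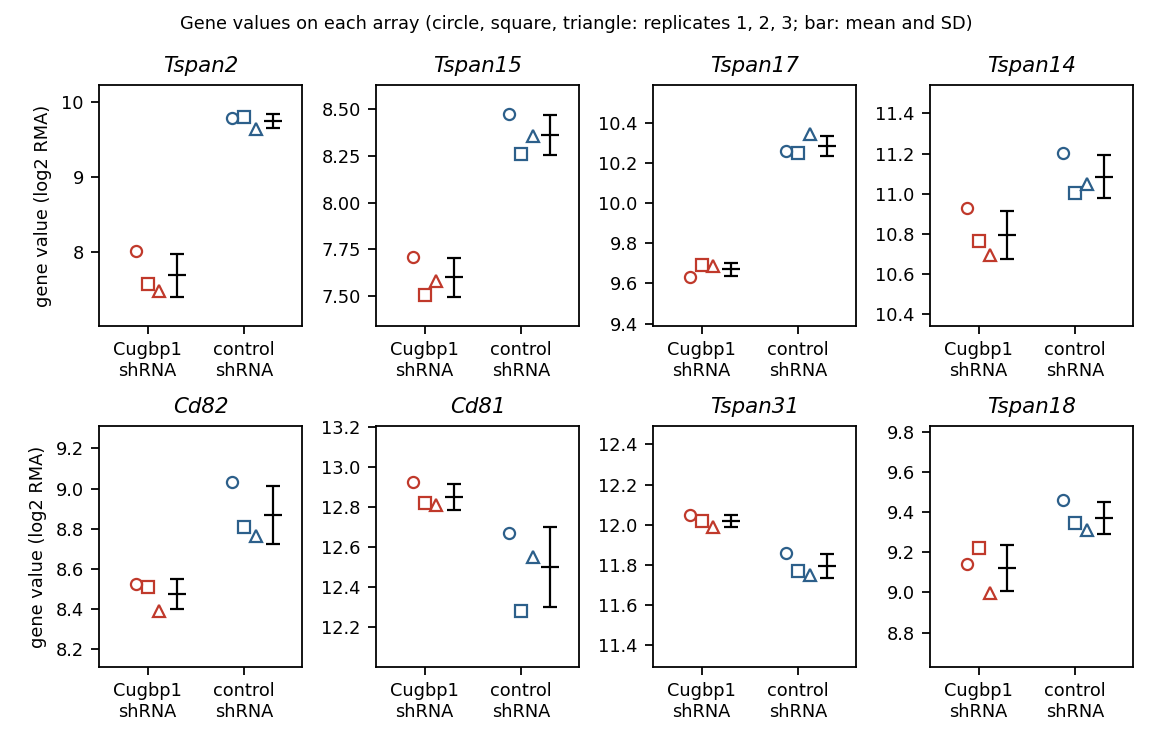
Gene values (log2 RMA) of 8 tetraspanin genes on each array, Cugbp1 shRNA left and control shRNA right, with replicates 1, 2 and 3 as circles, squares and triangles and bars for the mean and SD. The vertical axes cover different ranges and do not start at 0. The 8 genes are Tspan2 and members that passed with or without the replicate block. That their groups do not overlap was therefore largely set by the choice. Over all genes 14.4% were lower and 10.8% higher without overlap.

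The upstream sequences of Tspan2, Tspan15 and Tspan17 are shown because these were the 3 members with the lowest differences. Each is the 250 bases before the RefSeq gene start in the promoter table (build GRCm38.p6, which held 28 of the 30 members), read 5′ to 3′ on the strand of the gene, with GC boxes (GGGCGG or CCGCCC) and CCAAT boxes (CCAAT or ATTGG) in capitals. The Tspan2 window is chr3:102734520-102734769 on the plus strand, that of Tspan15 chr10:62231219-62231468 on the minus strand and that of Tspan17 chr13:54789155-54789404 on the plus strand.
Tspan2: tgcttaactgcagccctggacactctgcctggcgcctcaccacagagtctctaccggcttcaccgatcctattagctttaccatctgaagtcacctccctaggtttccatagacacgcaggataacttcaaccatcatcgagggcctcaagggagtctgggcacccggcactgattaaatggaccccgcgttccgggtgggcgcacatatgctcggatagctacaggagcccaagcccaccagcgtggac
Tspan15: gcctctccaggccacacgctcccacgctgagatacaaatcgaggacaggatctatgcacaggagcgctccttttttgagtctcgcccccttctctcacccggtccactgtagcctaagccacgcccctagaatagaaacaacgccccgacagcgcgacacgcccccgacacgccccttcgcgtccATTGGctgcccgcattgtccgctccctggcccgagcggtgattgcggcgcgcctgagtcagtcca
Tspan17: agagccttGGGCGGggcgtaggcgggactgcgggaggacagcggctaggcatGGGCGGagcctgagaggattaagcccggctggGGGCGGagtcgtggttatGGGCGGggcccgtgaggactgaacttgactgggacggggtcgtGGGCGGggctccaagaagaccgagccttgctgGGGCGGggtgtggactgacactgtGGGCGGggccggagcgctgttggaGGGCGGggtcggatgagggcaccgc
The Tspan17 window held 8 GC boxes and no CCAAT box, the Tspan15 window 1 CCAAT box and no GC box, and the Tspan2 window neither. None of them held TATAAA on either strand. Among 32851 such windows 32.7% held a GC box, 0.155% held at least 8, 33.8% held a CCAAT box and 12.4% held TATAAA. G and C made up 57.2% of the Tspan2 window, 63.2% of that of Tspan15 and 70.8% of that of Tspan17. The letters describe these windows only, and the arrays did not measure promoters.

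Limma called 0 of the 7 CD-numbered members, where it called 3.94% of all genes. An unadjusted p under 0.05 was found for 2 of them, Cd82 and Cd81, and for 3105 of all 16524 genes. Cd82, a suppressor of metastasis that binds integrins, was at 8.53, 8.51 and 8.39 in Cugbp1 shRNA arrays and at 9.03, 8.81 and 8.76 in control arrays. The groups did not overlap. Its difference was -0.39 (standard error 0.10). It missed the threshold in limma (adjusted p = 0.0878), and under the replicate block it passed (adjusted p = 0.0107). Cd81, a common exosome protein, was at 12.93, 12.82 and 12.81 in Cugbp1 shRNA arrays and at 12.67, 12.28 and 12.55 in control arrays. Every Cugbp1 shRNA array was above every control array, by at least 0.14. Its difference was 0.35 (standard error 0.12, limma, adjusted p = 0.162), or 128% of control, and under the replicate block it passed (adjusted p = 0.0247). All 12 Cd81 probe sets had a higher mean in Cugbp1 shRNA arrays, and in 9 the groups did not overlap, against 8.04% of all probe sets with 1 gene that passed the filter. They make up the gene value, whose groups did not overlap, so nothing further is read from this count.

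Cd9, a close relative of Cd81, which acts in cell fusion and adhesion, was at 8.68, 8.86 and 8.82 in Cugbp1 shRNA arrays and at 8.86, 8.71 and 8.59 in control arrays. The groups overlapped, and the difference of 0.07 had a 95% confidence interval of -0.18 to 0.31. Cd63, a marker of late endosomes and exosomes, was at 10.47, 10.78 and 10.76 in Cugbp1 shRNA arrays and at 10.44, 10.80 and 10.80 in control arrays. Both groups had their low array in replicate 1, and the means differed by -0.01 (interval -0.34 to 0.32). The standard error was 0.14 without the replicate block and 0.06 with it. Cd151, which binds laminin-binding integrins, was at 9.41, 9.55 and 9.43 in Cugbp1 shRNA arrays and at 9.67, 9.55 and 9.52 in control arrays, with a difference of -0.11 (interval -0.32 to 0.10). The leukocyte members Cd37 and Cd53 differed by -0.00 and -0.06, and neither passed in either model.

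Among the 11 other measured Tspan genes none passed in limma (0 called, against 3.94% of all genes), and their differences lay between -0.26 and 0.23. Of these 11, 3 had an unadjusted p under 0.05, where 3105 of all 16524 genes did. Tspan31, a distant member first found amplified in human sarcoma, was at 12.05, 12.02 and 11.99 in Cugbp1 shRNA arrays and at 11.86, 11.77 and 11.75 in control arrays. The groups did not overlap. Its difference of 0.23 (standard error 0.08, limma, adjusted p = 0.195) passed only under the replicate block (adjusted p = 0.0357), and all 13 probe sets had a higher mean. Tspan18, which supports the calcium channel Orai1 in endothelial cells, was at 9.14, 9.22 and 9.00 in Cugbp1 shRNA arrays and at 9.46, 9.34 and 9.31 in control arrays, without overlap. Its difference of -0.25 (standard error 0.10, limma, adjusted p = 0.217) also passed with the block (adjusted p = 0.0424), as did that of Tspan9, a platelet member, at -0.26 (adjusted p = 0.223 in limma, and 0.0398 by the block). With the block 6 of the 28 members passed as lower and 2 as higher, where 13.8% and 9.31% of all genes did.

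Tspan13, Tspan6 and Tspan3 had small SDs in both groups. Tspan13, which modulates voltage-gated calcium channels, averaged 12.58 ± 0.06 in Cugbp1 shRNA arrays and 12.64 ± 0.07 in control arrays. Tspan6, which acts in endosomal sorting, averaged 11.92 ± 0.05 in Cugbp1 shRNA arrays and 11.94 ± 0.09 in control arrays. Tspan3, a partner of claudin-11, averaged 12.20 ± 0.06 in Cugbp1 shRNA arrays and 12.10 ± 0.04 in control arrays (SD, n = 3 each in all cases). None of these 3 passed in either model (limma, adjusted p = 0.829, 0.970 and 0.602), although the groups of Tspan3 did not overlap. Tspan12, a coactivator of Norrin and Frizzled-4 signalling in retinal vessels, differed by -0.10, Tspan4, known from migrasomes, by -0.15, and Tspan11 by -0.21, with adjusted p of 0.761, 0.467 and 0.353 in limma. Tspan8, known from tumour cells, and Tspan32, a blood cell member, differed by 0.05 and 0.14, with 3 of 13 and 10 of 21 probe sets past the filter.

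The uroplakins Upk1a and Upk1b, which build plaques of the bladder epithelium, and Prph2 and Rom1, which shape the disc rims of photoreceptors, had control values between 6.49 and 7.18. None of the 4 passed in either model (0 called in limma and 0 at an unadjusted p under 0.05, where 3.94% and 3105 of 16524 of all genes did). Their differences were 0.13, -0.29, -0.11 and 0.11. Upk1b varied most between arrays, with 6.26, 6.15 and 6.96 in Cugbp1 shRNA arrays and 6.40, 6.85 and 7.00 in control arrays, and the groups overlapped.

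The members lie on 15 chromosomes, and 3 pairs are neighbours with no protein-coding gene between them in the RefSeq table. Tspan18 and Cd82 on chromosome 2 differed by -0.25 and -0.39, Tspan11 and Tspan9 on chromosome 6 by -0.21 and -0.26, and Tspan32 and Cd81 on chromosome 7 by 0.14 and 0.35. In each pair both differences had the same sign, and none of these genes passed in limma without the replicate block. Tspan11 and Tspan32 passed in neither model, and their groups overlapped. Of the 28 members other than Tspan2, 19 had a lower mean, so nothing is read from the shared signs.

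Exon usage asked whether single probe sets moved apart from the rest of their gene, since Celf1 acts in splicing. In diffSplice none of the 28 members other than Tspan2 was called (0, smallest adjusted p = 0.199, for Tspan17), where 0.884% of all genes were. Of 328 member probe sets, those of Tspan2 included, 309 stayed within 0.5 of the rest of their gene on the log2 scale. For Tspan2 itself 8 of 13 did. With the replicate block 5 members passed, where 19.6% of all genes did, so nothing is read about the family from this count. In Tspan17 probe set 5511305 was higher by 0.69 relative to the rest of the gene (adjusted p = 3.53e-05, diffSplice with the block) and probe set 4464530 was at -0.50 (adjusted p = 0.00283). Their own differences, Cugbp1 shRNA minus control, were 0.07 and -1.05, where the gene differed by -0.62. The first thus did not fall with its gene. In Tspan15 probe set 4351934 was higher by 0.71 relative to the rest of the gene (adjusted p = 0.00177) in that model. Its own difference was -0.10, where the gene differed by -0.76. In diffSplice without the block the adjusted p was 0.17 for 5511305, 0.836 for 4464530 and 0.8 for 4351934, so none of them passed. Probe sets 5511305 and 4351934 had the highest control means of their genes, 11.61 and 11.05. Tspan6 passed with 3 probe sets under the block. The single probe sets of Tspan11 (4799240) and Tspan32 (4828487) passed the filter on dim probe sets through 1 group only, with means of 5.44 in Cugbp1 shRNA arrays and 6.15 in control arrays for the first and of 6.36 in Cugbp1 shRNA arrays and 5.51 in control arrays for the second, so they had to differ and nothing is read from them. A splicing index, which gives each probe set its own variance, called 0 members and 0 of all genes.

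Of 24 measured genes in a list of 25 that encode tetraspanin partners, 3 fell and 1 rose in limma, where 2.84% and 1.10% of all genes did, and 20 did not pass. Before adjustment 6 of these 24 genes lay under 0.05 in limma, where 3105 of all 16524 genes did. The median difference of the 24 was -0.03, against -0.01 over all genes. Itga6, the integrin chain bound by Cd151, was at 8.74, 8.99 and 8.81 in Cugbp1 shRNA arrays and at 9.69, 10.29 and 9.81 in control arrays. The groups did not overlap, and Itga6 fell by 1.08 (standard error 0.17, limma, adjusted p = 0.0229). Ptgfrn, an immunoglobulin protein bound by Cd9 and Cd81, was at 8.84, 8.87 and 8.79 in Cugbp1 shRNA arrays and at 9.46, 9.61 and 9.44 in control arrays. It fell by 0.67 (standard error 0.09, limma, adjusted p = 0.0181), again without overlap.

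Msn, which encodes moesin and links membrane proteins to actin, was at 9.26, 9.36 and 9.27 in Cugbp1 shRNA arrays and at 8.87, 8.88 and 8.81 in control arrays, and rose by 0.44 (limma, adjusted p = 0.0363). The fourth called partner, Cldn1, a tight junction protein bound by Cd9 and Cd81, fell by 0.85 (limma, adjusted p = 0.0405). With the replicate block 5 partner genes fell and 2 rose, where 13.8% and 9.31% of all genes did. Leaving out single arrays left 0 to 2 partners called, with 0 without control replicate 2, Cugbp1 shRNA replicate 2 or Cugbp1 shRNA replicate 3, 1 without control replicate 3 or Cugbp1 shRNA replicate 1, and 2 without control replicate 1.

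**Figure D4:**
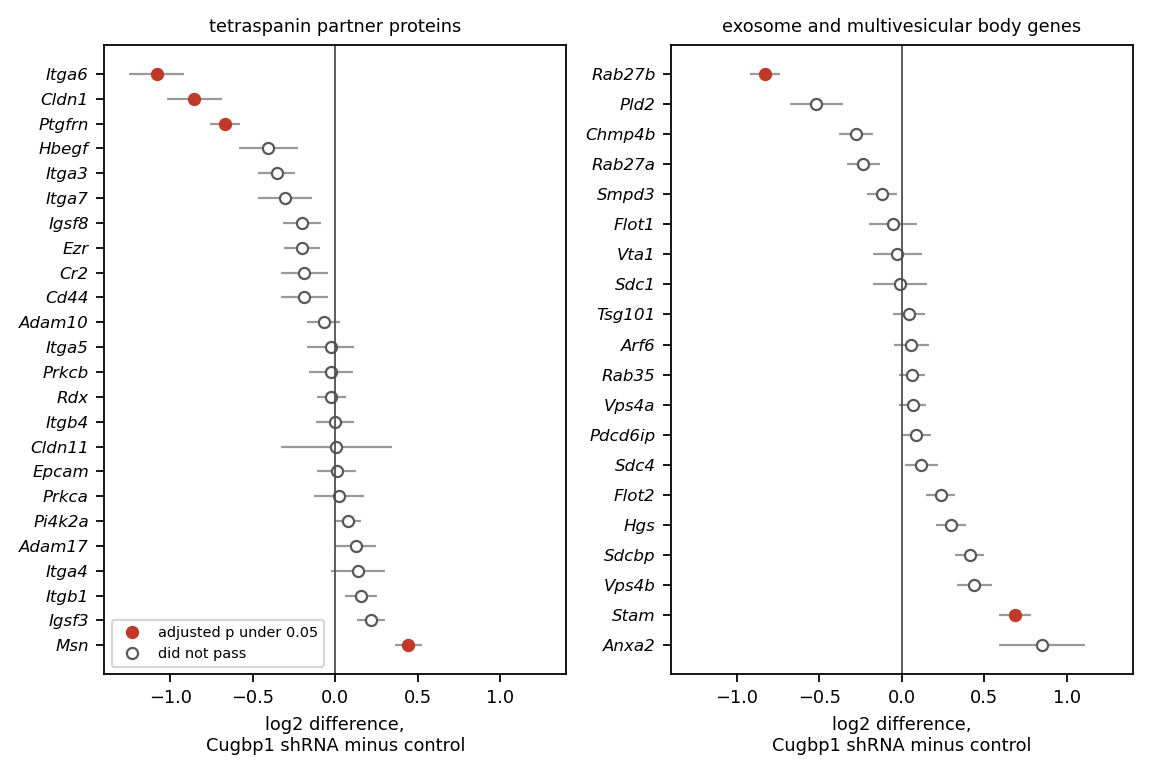
Log2 difference, Cugbp1 shRNA minus control, of each measured gene in the list of tetraspanin partner proteins (left) and of exosome and multivesicular body genes (right), with standard errors as bars and filled points at an adjusted p under 0.05 in limma. Itga6, Cldn1, Ptgfrn and Rab27b lie to the left of 0 and Msn and Stam to the right.

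Among 20 exosome and multivesicular body genes 1 fell and 1 rose in limma, where 2.84% and 1.10% of all genes did. Of the 20, 9 had an unadjusted p under 0.05, where 3105 of all 16524 genes did. The mean was higher in 12 and lower in 8, with a median difference of 0.06. Rab27b, a GTPase that docks multivesicular bodies at the plasma membrane, was at 7.17, 7.21 and 7.23 in Cugbp1 shRNA arrays and at 8.03, 8.13 and 7.94 in control arrays. It fell by 0.83 (standard error 0.09, limma, adjusted p = 0.0160), and the groups did not overlap. Stam, a component of the first sorting complex for ubiquitinated cargo, was at 10.19, 10.29 and 10.31 in Cugbp1 shRNA arrays and at 9.63, 9.44 and 9.67 in control arrays. It rose by 0.68 (standard error 0.10, limma, adjusted p = 0.0199). Sdcbp, or syntenin, the adaptor that binds Cd63, had a difference of 0.41 (limma, adjusted p = 0.0504) and an adjusted p of 0.00860 under the replicate block, by which 5 of the list rose and 2 fell (9.31% and 13.8% of all genes). None (0) of the 20 was called without control replicate 2, Cugbp1 shRNA replicate 2 or Cugbp1 shRNA replicate 3, and 2 or 3 were without each of the others.

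The neuronal markers had high signal on all arrays. The 9 measured of 10, without Rbfox3, averaged 11.91 to 11.97 in Cugbp1 shRNA arrays and 12.01 to 12.10 in control arrays, so the groups did not overlap, by a small margin. None passed in limma (0 called), and 1 had an unadjusted p under 0.05, where 3105 of all 16524 genes did. Dcx, a microtubule protein of young neurons, had a difference of -0.45 (limma, adjusted p = 0.0893, or 0.00504 by the replicate block). Astrocyte markers averaged 9.74 to 9.92 in Cugbp1 shRNA arrays and 9.85 to 9.90 in control arrays, and limma called 0 of 10, with 0 before adjustment. By the replicate block Aldh1l1, a folate enzyme of astrocytes, passed as lower, at -0.21 (adjusted p = 0.0411). Microglia markers averaged 6.71 to 7.03 in Cugbp1 shRNA arrays and 6.79 to 7.09 in control arrays, and 9 of 10 had a lower mean. Limma called 0 of the 10, with 0 before adjustment, and by the replicate block the complement gene C1qa passed as lower, at -0.23 (adjusted p = 0.0362). The neuronal, astrocyte and microglia lists each had 1 marker lower by the block, where 13.8% of all genes were, so nothing is read from these single markers. Endothelial and mural cell markers averaged 6.92 to 7.17 in Cugbp1 shRNA arrays and 6.90 to 7.32 in control arrays, with 1 of 9 called, where 2.84% of all genes were called lower. It was the mural receptor Pdgfrb, which fell by 0.80 (limma, adjusted p = 0.0415) and did not pass when any single array was left out. Other mural markers did not pass, with differences of 0.23 for Cspg4, 0.06 for Rgs5 and -0.07 for Acta2. Of the 9 markers 4 had a higher and 5 a lower mean. Fibroblast and meninges markers averaged 8.08 to 8.41 in Cugbp1 shRNA arrays and 8.03 to 8.44 in control arrays, with 0 of 9 called in limma and 0 before adjustment. Over all genes limma called 3.94%, and 3105 of 16524 were under 0.05 before adjustment. Nothing is read from counts of 0 in marker lists of this size. Cldn5 and Lum were not measured. The part of any cell type in the differences of tetraspanin genes was not tested.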

How the data were processed

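The authors deposited log2 expression values, 1 per exon probe set and array (1195555 probe sets, 6 arrays). Per the submitters' processing notes they came from RMA in Affymetrix Expression Console with build mm9 named, and per the labels of both replicate 1 arrays from an all-exon setting. No software version is given in the sources used, nor whether all arrays were normalized at once. RMA fits arrays to 1 distribution, so differences in total signal are removed. Array medians lay between 5.74 and 5.78. Depth has no meaning for arrays, and their number limits the precision.

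The platform annotation gave 1 gene to 316997 probe sets and several to 6571. Of 22264 symbols 17988 were current in the RefSeq table (GRCm38.p6), 4213 were updated through synonyms and 63 were kept. Filter and gene values are described with the results, and tested genes had a median of 12 probe sets. The test was two-sided, by lmFit and eBayes (limma 3.58.1, R 4.3.3), of Cugbp1 shRNA minus control, adjusted by Benjamini-Hochberg over all genes. Exon usage was tested with diffSplice and a Simes test per gene. The functions were tested on simulated data. Figures were drawn with matplotlib 3.10.9.

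Samples were grouped by their titles. In each group 1 title has no number, and that array is called replicate 1. Deviations from the group means correlated at 0.76, 0.50 and 0.715 between same-numbered arrays, across genes, and the correlations of differently numbered arrays ran from -0.70 to 0.16. By the rule used, the numbers pair the arrays. The replicate block was therefore fitted beside the design without it. Members, lists and tests were chosen with earlier results of these data known. The genes with values on every array are Tspan2, the members called with or without the block up to 8 by smallest p, and Cd9, Cd63, Cd81 and Cd151, with up to 3 genes per list. Tspan33, Upk1b, Adam10 and other genes named beyond this were chosen after their values were seen. Alternatives were the replicate and label form blocks, each array left out, 2 other filters, fewer probe sets per gene, means, 2 normalizations, another variance model and a splicing index. The use of replicates 2 and 3 alone was added after seeing the data.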

Additional observations from a re-analysis of the deposited data

How the results depend on the processing

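Apart from Tspan2, 2 tetraspanins were called, 8 with the replicate block, 5 with a block for the label form and 0 to 2 without single arrays (0 without control replicate 2, Cugbp1 shRNA replicate 2 or Cugbp1 shRNA replicate 3, and 1 without control replicate 3). All other settings called 2, replicates 2 and 3 alone included. Limma called 651 of all genes, 3827 with the replicate block, 2532 with the label form block, 1039 with the filter at the 75th percentile, 260 with genes of 1 or 2 probe sets included, 1089 with trended and robust variances and 0 to 648 without single arrays. The cause of these shifts was not tested. Exon usage calls among tetraspanins, Tspan2 included, were 0, with 5 by the replicate block, 1 by the label form block (Tspan17), 1 without the filter (Tspan2 itself, from which nothing is read, where 1.28% of all genes were called) and 0 without any single array. The median control level was 9.16, and it was 8.47 without the filter (30 members), 10.14 with the filter at the 75th percentile (20 members), 9.01 with genes of 1 or 2 probe sets included, 8.84 from means and 9.11 to 9.19 without single arrays. Partner calls were 4, with 7 by the replicate block, 2 with genes of 1 or 2 probe sets included and 2 in replicates 2 and 3 alone. Exosome and multivesicular body calls were 2, with 7 by either block and 4 with the filter at the 75th percentile or with trended and robust variances. Pdgfrb was not called with genes of 1 or 2 probe sets included or in replicates 2 and 3 alone. The Tspan2 difference ran from -2.23 to -1.96 without single arrays and from -2.20 to -2.06 in the other settings. Of the single-gene differences under alternative settings 439 kept their side of the threshold and direction or stayed uncalled, 9 passed only in the alternative and 7 no longer passed. No called difference changed sign. Arrays without a detection call leave the dimmest members, Tspan1 above all, without a usable level.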
